A study of Mus musculus with 2 samples.

Results

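The cells described here are nonclassical patrolling monocytes of the lung, taken by a gene rule from single-cell RNA libraries of 2 groups of tumour-bearing mice. A barcode was a member when it had at least 500 UMIs (unique molecular identifiers, each standing for 1 captured transcript), at least 200 genes and at most 20% mitochondrial UMIs. It also had to hold at least 3 of the 7 marker genes Ace, Treml4, Cd300e, Eno3, Spn, Adgre4 and Cd300ld, and at least 1 UMI of Csf1r. S100a8 and S100a9 together had to stay under 3% of UMIs, Ly6c2 at 1 UMI or fewer, the C1qa, C1qb and C1qc sum at 2 or fewer, and Cd3e, Cd79a and Cdh5 at 0. Members were thus chosen by their counts of these genes, which are given below as a description only. The rule found 81 members among 13720 barcodes past the quality limits in the treated library and 221 among 14560 in the control library. Both groups were female Balb/C mice carrying orthotopic K7M2 osteosarcoma, a mouse bone tumour line that spreads to the lung. They were randomly assigned to PBS or to 1V209-Cho-Lip, and the series title names a TLR7 agonist nanomedicine. Lungs of 3 mice were pooled into 1 library per group, so there is no replicate, no test was made and treatment cannot be told apart from library. All intervals below are exact 95% intervals that cover counting error only.

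Nonclassical monocytes are the Ly6C-low blood monocytes that crawl along the inner wall of small vessels and clear debris and tumour material from it. They arise largely from classical, Ly6C-high monocytes under the orphan nuclear receptor Nr4a1, and their survival relies on Cx3cr1 and on Bcl2 family proteins. In the lung they are known for surveying the capillary bed and for acting on circulating tumour cells. TLR7, the receptor for single-stranded RNA in endosomes, is one of the sensors these cells carry.

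The members held 559567 UMIs in the treated library and 926387 in the control library, with medians of 4180 and 3121 UMIs and of 1814 and 1458 genes per cell. Depth was uneven among them. In the treated library 9 members had more than 3 times the median UMIs (over 12540) and gave 42.5% of all member UMIs, against 16 members over 9363 UMIs and 25.2% in the control library. RNA of other cell types exceeded 1% of UMIs in 3 treated and 12 control members, counting lists for T and NK, B and plasma, endothelial, epithelial (without Scgb1a1), fibroblast, platelet, red and Def8-led cells (a further cluster of these libraries, known by its leading gene). The values below are therefore the ratio of summed CPM (the members' counts of a gene per 1000000 of their UMIs) and, where given, that of the mean CPM over cells (equal weight per cell), that without the deep members, and that without the members with other-type RNA. Scrublet marked 3 treated and 20 control members as doublets. A total of 268 barcode sequences occurred in both libraries, 5 treated and 3 control members carried one, and 0 sequences were members in both. At the marker limit, 35 treated and 57 control barcodes had exactly 2 markers and met all other limits, against 12 and 41 with exactly 3. At the Ly6c2 limit, 19 and 38 members had 1 UMI, and 6 and 22 barcodes had 2. At the Csf1r limit, 26 and 61 members had 1 UMI, and 14 and 52 barcodes had 0.

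The label was checked against markers of this cell type that the rule did not use. Nr4a1 was found in 98.8% of treated and 93.2% of control members. It was also in 68.2% and 62.6% of barcodes that met all other limits with 0 of the 7 markers. Nr4a1 thus sets the members apart only in part, whereas Cx3cr1 was in 4.82% and 6.59% of those barcodes. Gngt2, a G protein gamma subunit, was found in 95.1% and 95.5%. Itgal, the alpha chain of the integrin LFA-1 that these cells use to patrol, was found in 80.2% and 85.1%, and the fractalkine receptor Cx3cr1 in 45.7% and 49.8%. Of the markers in the rule, Ace was found in 88.9% and 89.6% of members, Treml4 in 66.7% and 73.8%, and Cd300e in 38.3% and 40.7%, which the rule favours and which are given as a description. T and NK cell genes held 5 UMIs over the treated members and 285 over the control members, 9 and 2 of 11 such genes were at 0, and B and plasma cell genes held 3 and 13 UMIs. Dendritic cell markers were found in 12.3% and 6.79% of members. Epithelial genes had a UMI in 95.1% and 91.9% of members, at medians of 768 and 840 CPM per cell. Neutrophil genes had one in 59.3% and 37.1%, and red cell genes in 7.41% and 34.8%. Macrophage genes had one in 97.5% and 95.02%, at medians of 2044 and 2067 CPM per cell against 4181 and 4007 CPM in alveolar macrophages, and 3 and 2 of the 15 genes were at 0. The part of these other-type transcripts in each result was not tested.

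The rule has no limit on alveolar macrophages, the resident phagocytes of the air spaces. Of 5 genes of these cells, Ear1, Siglecf, Marco, Krt79 and Plet1, at least 2 were found in 6 treated and 12 control members, of which 5 and 9 were among the deep ones, and at least 3 in 4 and 9. The 6 and 12 members gave 18.8% and 13.4% of member UMIs. Ear1 had a UMI in 8.64% of treated and 6.79% of control members, against 96.3% and 94.9% of alveolar macrophages, and Siglecf in 4.94% and 3.62%, against 65.9% and 76.1%. The 6 and 12 members held 75.5% and 94% of the members' UMIs of the mannose receptor Mrc1, but 0.234% and 1.12% of those of H2-Aa. Without them Bcl2 had a treated over control ratio of 0.266, H2-Aa one of 2.13 (1.96 to 2.32), Pparg one of 0.479 (0.354 to 0.640) and Cd36 one of 0.560 (0.460 to 0.678), on the same side of 1 as with them.

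The members were compared with classical monocytes of the same library. The 15 genes with the highest ratio in the control library were Fabp4, Lilra5, Cd36, Pparg, Cd300ld3, Dusp16, Gngt2, Pglyrp1, Fcgr4, Pecam1, Ear2, Lpl, Atp6v0d2, Abi3 and Cyfip2. The fatty-acid carrier Fabp4 was at 167 CPM in control members and 3.15 CPM in control classical monocytes, a ratio of 53.2 (31.7 to 95.4), and at 102 and 3.38 CPM in the treated library, a ratio of 30.1 (16.8 to 57.3). The fatty-acid receptor Cd36 was 16.3 times (13.6 to 19.7) as high in control members as in control classical monocytes and 11.5 times (8.90 to 14.8) in the treated library. The bacterial cell-wall binding protein Pglyrp1 stood at 10.0 times (8.62 to 11.6) in the control and 3.43 times (2.83 to 4.14) in the treated library. Gngt2 stood at 10.0 times (9.04 to 11.1) and 5.12 times (4.57 to 5.73). The ratio over classical monocytes was lower in the treated library for 13 of these genes and higher for Ear2, an eosinophil-type ribonuclease, at 9.72 (8.18 to 11.6) against 11.5 (9.58 to 13.8), and for the lipase Lpl, at 9.71 (7.90 to 11.97) against 10.4 (8.60 to 12.7). For Ear2, 1 treated member held 34.2% of UMIs, and Lpl was found in 14.8% and 16.3% of members, with a treated over control ratio of 1.59, or 0.315 without the deep members. Lpl and Atp6v0d2, a proton pump subunit, are also genes of alveolar macrophages. The 6 treated and 12 control members with at least 2 alveolar macrophage genes held 87.6% and 83.1% of the Lpl UMIs, 88.4% and 95.2% of the Atp6v0d2 UMIs and 59.1% and 40.8% of the Ear2 UMIs, but 15.8% and 8.39% of the Fabp4 UMIs. Without them the ratio over classical monocytes in the control library was 1.90 (1.32 to 2.67) for Lpl, 0.551 (0.231 to 1.13) for Atp6v0d2, 6.64 (5.47 to 8.07) for Ear2 and 56.3 (33.5 to 101.1) for Fabp4. Lpl and Atp6v0d2 thus stood high through a few members. The set was chosen in the control library, so a lower value in the treated library is partly fixed by the choice. The classical monocytes also differed between libraries. Def8-led cluster genes stood at 11262 CPM in the control and 3901 CPM in the treated ones. Their classical markers stood at 12067 and 18882 CPM in sum, but at per-cell medians of 26197 and 26779 CPM. The part of this in the ratios was not tested.

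Nonclassical monocytes made up 0.590% (0.469 to 0.733) of barcodes in the treated library and 1.52% (1.33 to 1.73) in the control library, a ratio of 0.389 (0.298 to 0.504). Neutrophils made up 35.7% of treated and 10.7% of control barcodes, which lowers every other share. Among barcodes with S100a8 and S100a9 under 3% of UMIs, the members were 0.922% and 1.71%, a ratio of 0.541 (0.414 to 0.701). Among Csf1r-positive barcodes without T, B and endothelial genes they were 7.63% and 16.1%, a ratio of 0.473 (0.362 to 0.613). Of both monocyte classes together they were 17.3% and 35.5%, a ratio of 0.488 (0.373 to 0.632). The ratio thus stayed below 1 under each of these 4 denominators. Classical monocytes, gated by Ly6c2 and partner genes, had a ratio of 1.02 (0.886 to 1.18) of all barcodes, with 387 treated and 402 control cells. C1q-high macrophages had 0.817 (0.643 to 1.04), alveolar macrophages 0.511 (0.432 to 0.602), B cells 0.484 (0.435 to 0.538) and T cells 0.510 (0.471 to 0.553). Fewer of these cells in the lung and fewer of them captured or meeting the rule cannot be told apart.

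**Figure D1:**
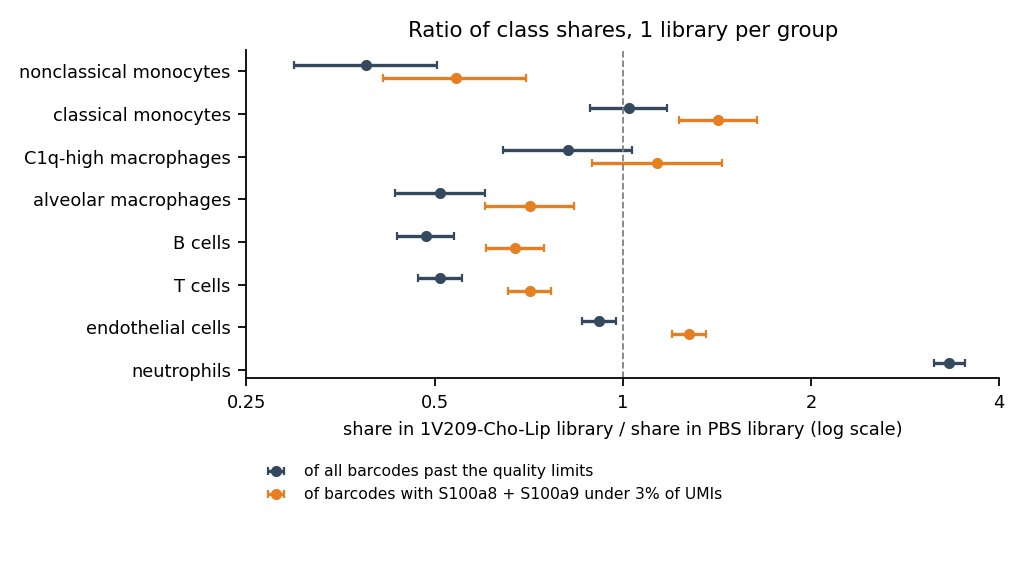
Ratio of each class's share in the 1V209-Cho-Lip library to that in the PBS library, on a log scale, with exact 95% intervals for counting error only. Nonclassical monocytes sit at 0.389 of all barcodes and 0.541 of barcodes with S100a8 and S100a9 under 3% of UMIs, and classical monocytes at 1.02 and 1.42.

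Over both libraries 7447 genes had at least 20 UMIs in the members and were measured. Of these, 532 (7.14%) were at least 2-fold higher in the treated members and 341 (4.58%) at least 2-fold lower. At 1.5-fold the counts were 1214 (16.3%) higher and 1071 (14.4%) lower, and these are the shares to set list counts in the members against. The 2-fold calls in all 4 weightings were 236 higher and 137 lower. Of the 236, 129 were also 2-fold higher in classical monocytes, 57 in every other class where they were measured and 73 in none. Of the 137 lower genes, 134 were measured in at least 3 other classes, and 10 of those were 2-fold lower in classical monocytes, 4 in every other class and 93 in none. These classes share the same 2 libraries, so the counts describe the selected genes within them. The shares of all measured genes past 2-fold in these classes were not worked out, so the counts have no background beside them. At the smaller limit of 1.5-fold, 2113 of 12257 genes measured in classical monocytes were higher and 2176 lower. Treated over control ratios of single genes in other classes are of summed counts, which deep cells can dominate. In classical monocytes, equal weight per cell moved the median of nonclassical markers outside the rule from 0.40 to -0.10 on the log2 scale. The adhesion median there moved from 0.44 to 0.08, and that of acute-phase and C/EBP genes from 1.25 to 0.72. Genes beyond the 12 highest, the 12 lowest, the 15 set apart from classical monocytes and the leading members of each list were named after their values were seen.

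MHC class II genes, which load and show peptides to CD4 T cells, were higher in the treated members. H2-Aa, the alpha chain of I-A, stood at 2295 CPM in the treated and 1158 CPM in the control members (1284 and 1073 UMIs), for a ratio of 1.98 (1.83 to 2.15), or 2.54 with equal weight per cell and 2.97 without the deep members. Its partner H2-Ab1 stood at 1658 and 809 CPM, for a ratio of 2.05 (1.86 to 2.26), or 2.47 and 2.995 in the same weightings. H2-Eb1, the beta chain of I-E, stood at 1344 and 693 CPM, for a ratio of 1.94 (1.74 to 2.16). All 3 were thus near 2-fold higher, and further apart when the deepest cells did not dominate. The invariant chain Cd74 stood at 6092 and 3721 CPM, for a ratio of 1.64 (1.56 to 1.72), and the peptide-exchange chain H2-DMb2 at 109 and 39.9 CPM, for a ratio of 2.73 (1.79 to 4.22). Ifi30, a thiol reductase of antigen processing, stood at 359 and 241 CPM, for a ratio of 1.49 (1.23 to 1.81). Ciita, the master activator of these genes, had 10 and 14 UMIs, a ratio of 1.18, and 0.79 with equal weight per cell. Of 9 measured list members 5 were at least 1.5-fold higher and 0 lower, and 8 were above 1 in all 4 weightings, against 30.4% of all measured genes. The list median was 0.71 on the log2 scale, 0.94 with equal weight per cell and 1.35 without the deep members, where all measured genes had a median of 0.00. It was smaller under other settings. With 2 markers required instead of 3 it was 0.42, with 4 of 10 genes at least 1.5-fold higher. With barcodes thinned to 1000 UMIs before the rule it was 0.32, with 2 of 6 higher.

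More of the treated members carried these transcripts. H2-Aa had a UMI in 53.1% of treated and 39.4% of control members, and H2-Ab1 in 53.1% and 30.3%. Expected at 1000 UMIs per cell, where depth is equal, H2-Aa was in 38.5% (27.9 to 49.98) of 81 treated and 25.8% (20.1 to 32.2) of 218 control members, 3 shallower control cells being left out. T cells, which should lack it, were at 3.47% and 4.37% at that depth, with median depths of 3597 and 2973 UMIs before thinning. H2-Ab1 was in 33.4% (23.3 to 44.8) and 20.7% (15.5 to 26.7), and in 3.38% and 3.32% of T cells. The intervals of the 2 libraries overlapped for both genes. Members with 5 or more UMIs of H2-Aa, H2-Ab1 and H2-Eb1 together were 31 of 81 (38.3%, 27.7 to 49.7) in the treated and 51 of 221 (23.1%, 17.7 to 29.2) in the control library. Members with none were 25 (30.9%) and 117 (52.9%). The 5 members richest in these transcripts held 50% and 44.7% of them. Among the members with 5 or more such UMIs, Treml4 was found in 64.5% and 78.4%, Ccr2, a chemokine receptor of classical monocytes and dendritic cells, in 58.1% and 41.2%, and a dendritic cell marker in 5 of 31 and 6 of 51. The part of dendritic-like cells in the difference was not tested.

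**Figure D2:**
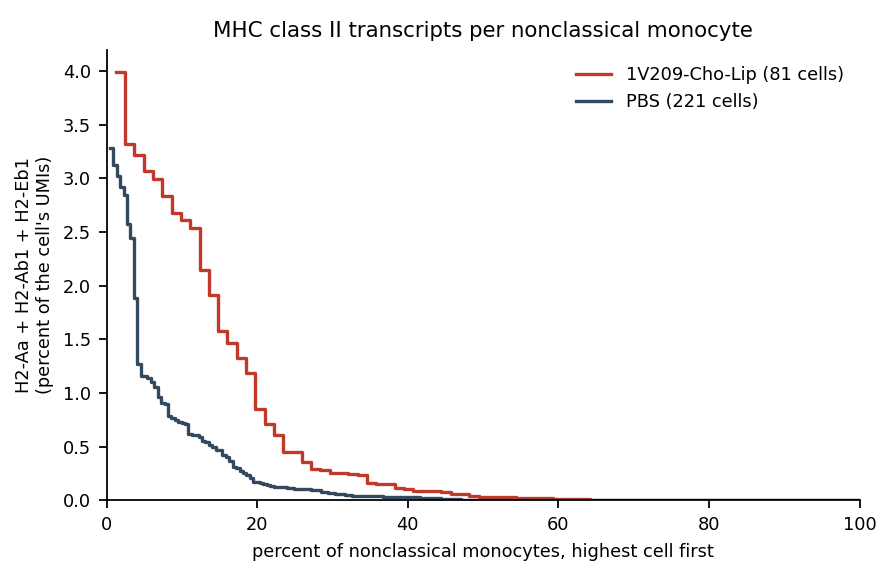
UMIs of H2-Aa, H2-Ab1 and H2-Eb1 together as a percent of each nonclassical monocyte's UMIs, cells ordered from highest to lowest along the x axis in percent of cells, 81 cells in the 1V209-Cho-Lip and 221 in the PBS library. The treated curve lies above the control curve, and the highest cells reach 3.996% and 3.29%.

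The direction was not shared by most other classes. H2-Aa had a ratio of 1.43 in classical monocytes and 1.44 in T cells, 1.01 in B cells, 0.68 in C1q-high macrophages and 0.30 in alveolar macrophages. H2-Ab1 had 1.40, 1.91, 0.96, 0.65 and 0.29 in the same order, and H2-DMb2 had 1.35, 2.26, 0.94, 0.58 and 0.51. These are ratios of summed counts. The summed list median on the log2 scale was 0.47 in classical monocytes and 0.24 in T cells. With equal weight per cell it was -0.10 and -0.03 in these classes, against 0.94 in the members. No test of the difference between classes can be made with 1 library per group.

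The promoters of these genes are shown because the family was higher together and is known for common promoter elements. RefSeq promoters (GRCm38.p6, the NCBI name of the mm10 build, 250 bases before to 50 after the start, 1 per gene) were found for 6 of the 9 measured MHC class II list members. The letters TGATTGG, the core of the MHC class II Y box that the factor NF-Y binds, were searched on both strands and are in capitals below. They were in 3 of the 6, H2-Aa, H2-Eb1 and H2-DMb2, and in 8.20% of all 27025 promoters. H2-Aa lies at chr17:34287774-34288073 on the minus strand, H2-Eb1 at chr17:34305617-34305916 on the plus strand and H2-DMb2 at chr17:34144999-34145298 on the plus strand.
H2-Aa: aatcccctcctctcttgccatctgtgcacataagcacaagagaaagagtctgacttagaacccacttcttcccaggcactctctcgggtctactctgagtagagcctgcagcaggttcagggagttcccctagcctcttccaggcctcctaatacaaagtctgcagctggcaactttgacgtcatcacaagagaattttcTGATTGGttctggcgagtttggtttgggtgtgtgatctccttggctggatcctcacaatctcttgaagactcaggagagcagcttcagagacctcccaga
H2-Eb1: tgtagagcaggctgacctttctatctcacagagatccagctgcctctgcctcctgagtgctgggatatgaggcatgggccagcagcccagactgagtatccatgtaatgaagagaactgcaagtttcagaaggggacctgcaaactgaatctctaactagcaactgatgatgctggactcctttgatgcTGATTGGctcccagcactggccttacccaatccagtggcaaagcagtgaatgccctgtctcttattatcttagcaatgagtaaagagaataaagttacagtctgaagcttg
H2-DMb2: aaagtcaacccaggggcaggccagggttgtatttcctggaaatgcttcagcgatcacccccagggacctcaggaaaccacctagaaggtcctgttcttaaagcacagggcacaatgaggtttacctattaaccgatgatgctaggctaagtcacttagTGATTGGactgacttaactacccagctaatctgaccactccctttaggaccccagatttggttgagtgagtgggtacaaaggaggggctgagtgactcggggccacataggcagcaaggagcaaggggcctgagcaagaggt
The matches begin at positions -50, -61 and -92 from the start. A match is a string of letters and no evidence of binding.

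Markers of nonclassical monocytes outside the rule were more often lower than higher in the treated members, and genes of their identity and survival stood on both sides of 1. Bcl2, the survival protein these cells depend on (chromosome 1, 106538178 to 106714274, minus strand), had 17 UMIs (30.4 CPM) in the treated and 117 UMIs (126 CPM) in the control members, a ratio of 0.241 (0.136 to 0.402), and 0.266 with equal weight per cell, 0.284 without the deep members and 0.274 without those with other-type RNA. It was found in 13 of 81 and 66 of 221 members, and at 1000 UMIs per cell in 4.28% (1.04 to 11.3) and 12.7% (8.56 to 17.8). Its ratio was 1.20 in classical monocytes, 0.85 in B cells, 0.98 in T cells and 0.39 in alveolar macrophages, values on both sides of 1. Ceacam1, a carcinoembryonic antigen family adhesion protein (chromosome 7, 25461707 to 25477603, minus strand), stood at 107 and 256 CPM, for a ratio of 0.419 (0.310 to 0.558), or 0.58 with equal weight per cell. Of the other survival genes, Mcl1 had a ratio of 1.27 (1.00 to 1.62), and Bcl2l1, which encodes Bcl-xL, 2.10 (1.01 to 4.43) on 19 and 15 UMIs.

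The transcription factors gave smaller differences. Nr4a1 stood at 1113 and 1717 CPM, for a ratio of 0.648 (0.590 to 0.712), and 0.78 with equal weight per cell. At 1000 UMIs it was in 70.0% (58.8 to 79.7) and 77.8% (71.7 to 83.2) of members, intervals that overlap, and in 22.9% and 23.01% of T cells. Pou2f2, an octamer-binding factor, stood at 266 and 467 CPM, for a ratio of 0.570 (0.470 to 0.688), and 0.73 with equal weight per cell. Of 21 measured markers outside the rule, 0 were at least 1.5-fold higher and 9 lower, and 11 were below 1 and 4 above 1 in all 4 weightings. Their median was -0.39 on the log2 scale, and -0.26 with equal weight per cell. In summed counts it was also below 0 in neutrophils (-0.32), T cells (-0.23), B cells (-0.19) and C1q-high macrophages (-0.15). It was above 0 in classical monocytes (0.40), endothelial cells (0.18) and alveolar macrophages (0.03). With equal weight per cell it was -0.32 in neutrophils, -0.12 in B cells and -0.02 in T cells. The 28 identity and survival genes had a median of -0.20, which turned to 0.06 with equal weight per cell and without the deep members, and in all 4 weightings 10 were above 1 and 10 below.

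Adhesion genes were mixed, with some lower and others higher in the treated members. Itgal stood at 318 and 635 CPM, for a ratio of 0.501 (0.421 to 0.594), or 0.62 with equal weight per cell. In classical monocytes its ratio of summed counts was 1.34. Itga4, the alpha chain of VLA-4, stood at 404 and 741 CPM, for a ratio of 0.545 (0.467 to 0.635), or 0.74 with equal weight per cell. S1pr5, a sphingosine phosphate receptor used in exit from the bone marrow, stood at 30.4 and 82.0 CPM (17 and 76 UMIs), for a ratio of 0.370 (0.205 to 0.633). At 1000 UMIs S1pr5 was in 4.94% (1.36 to 12.2) and 11.3% (7.39 to 16.2) of members, and in 0.0488% and 0.222% of T cells. Cx3cr1 stood at 122 and 195 CPM, for a ratio of 0.622 (0.464 to 0.826), and 0.82 with equal weight per cell. Itgb1, the common beta chain of VLA integrins, stood higher at 311 and 226 CPM, for a ratio of 1.38, and 1.57 with equal weight per cell. Of 30 adhesion and trafficking genes 4 were at least 1.5-fold higher and 7 lower, with a median of -0.22, or -0.07 with equal weight per cell. In all 4 weightings 10 were above 1 and 13 below.

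Interferon-stimulated genes were lower in the treated members in sum, with a median that moved with the choice of cells. The guanylate-binding protein Gbp2, an interferon-gamma target, stood at 35.7 and 88.5 CPM, for a ratio of 0.404 (0.235 to 0.665), or 0.43 with equal weight per cell. The ubiquitin-like modifier Isg15 stood at 59.0 and 138 CPM, for a ratio of 0.427 (0.282 to 0.630), or 0.66 with equal weight per cell, and 1 control member held 17.97% of its control UMIs. Ifitm3, a membrane restriction factor and the list member with the most UMIs, stood at 2716 and 3914 CPM, for a ratio of 0.694 (0.653 to 0.737), or 0.85 with equal weight per cell and 0.91 without the deep members. Ly6e, a surface protein of the same response, stood at 1551 and 2188 CPM, for a ratio of 0.709 (0.654 to 0.768), and Samhd1, a nucleotide hydrolase, at 633 and 1054 CPM, for a ratio of 0.600 (0.530 to 0.679).

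Of 36 measured type I list members 1 was at least 1.5-fold higher and 16 lower, and 5 were above 1 and 20 below 1 in all 4 weightings, against 30.4% and 34.1% of all measured genes. The median was -0.50 on the log2 scale, -0.24 with equal weight per cell and -0.11 without the deep members, and it turned to 0.14 when members needed 2 markers instead of 3. In summed counts the list's median was below 0 in 5 other classes. It was -0.65 in C1q-high macrophages, with 0 higher and 25 lower of 44, and -0.58 in T cells, with 1 and 22 of 44. Over all genes measured in these 2 classes, 857 of 8529 and 897 of 12586 were at least 1.5-fold lower. The median was -0.23 in endothelial cells and -0.16 in B cells and in neutrophils. It was 0.16 in classical monocytes and 0.48 in alveolar macrophages, the latter with 19 higher and 2 lower of 42. Over all genes measured in alveolar macrophages, 1300 of 10745 were higher and 751 lower. With equal weight per cell the classical monocyte median turned to -0.31, with 0 higher and 10 lower of 45. Over all genes measured in classical monocytes, 1492 of 12257 were higher and 2164 lower in that weighting. The alveolar macrophage median stayed at 0.48. Ddx58, the sensor RIG-I, was the list's highest at 1.55 (30 and 32 UMIs), and Irf7, the master factor of the response, stood at 0.95 and at 1.14 with equal weight per cell. The 15 interferon-gamma genes had a median of -0.42, with 1 higher and 6 lower at 1.5-fold. Ifngr2, the second receptor chain, was the higher one at 1.503 (1.09 to 2.06). The interferon-gamma median was -0.28 with equal weight per cell and -0.11 without the deep members. It turned to 0.19 with 2 markers instead of 3, with 7 higher and 3 lower of 22. MHC class I genes had a median of -0.34, with 0 of 21 higher, 5 lower and 16 below 1 in all 4 weightings, and their median was below 0 in all 8 classes. Differences were small for the class I chains themselves: B2m stood at 2032 and 2543 CPM, for a ratio of 0.799 (0.744 to 0.858), and H2-K1 at 0.836 (0.777 to 0.899), or 0.95 with equal weight per cell. Class I and class II genes thus stood on opposite sides of 1.

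Promoters were found for 26 of the 36 type I genes. The letters GAAA, any 2 bases and again GAAA, an interferon-stimulated response element, were on either strand in 13 of them and in 3.49% of all promoters. Isg15 is shown because it holds 3 overlapping matches, the first at position -78, with all matches in capitals, from chr4:156200769-156201068 on the minus strand.
Isg15: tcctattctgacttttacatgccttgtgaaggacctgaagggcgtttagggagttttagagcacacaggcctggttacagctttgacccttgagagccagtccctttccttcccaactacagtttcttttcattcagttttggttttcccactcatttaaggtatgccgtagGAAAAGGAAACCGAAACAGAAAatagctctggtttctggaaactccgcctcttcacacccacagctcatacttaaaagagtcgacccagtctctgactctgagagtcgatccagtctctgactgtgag
The 13 genes with a match had a median of -0.53 on the log2 scale and the 13 without one -0.50, and 10 and 12 of them were below 1.

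**Figure D3:**
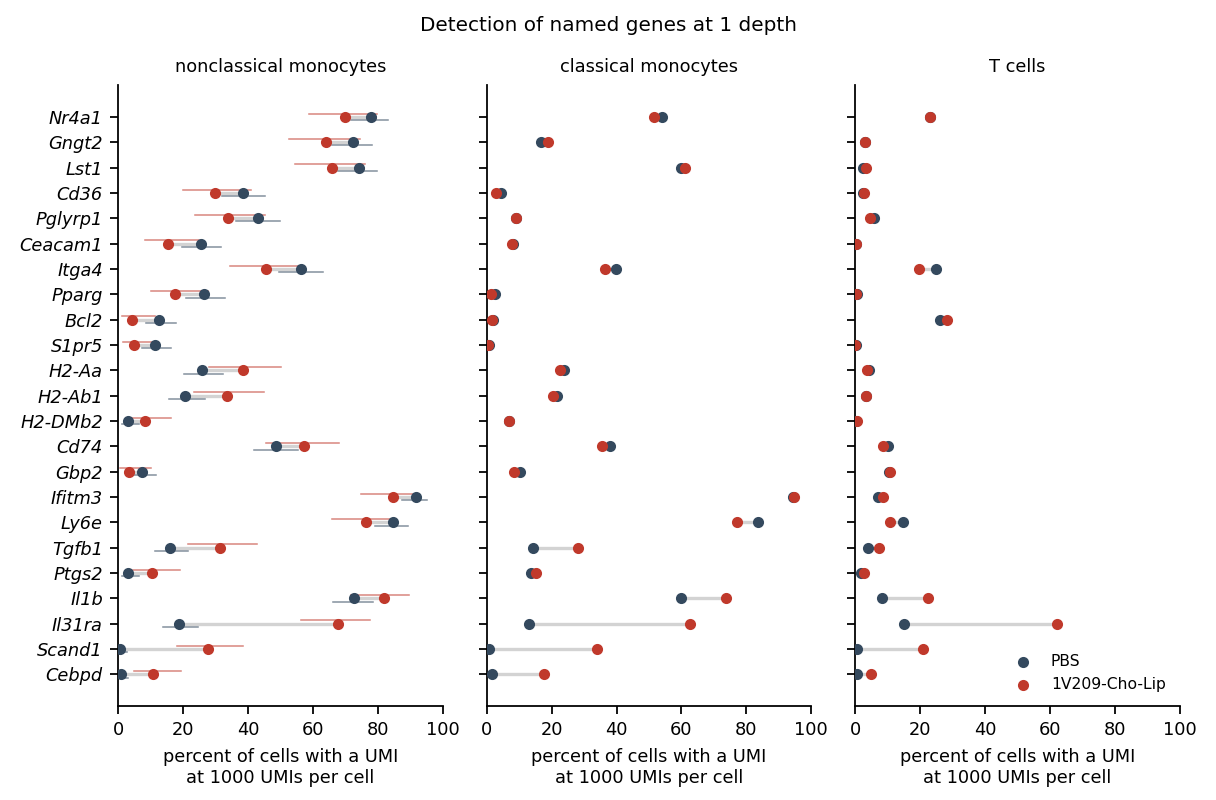
Percent of cells expected to hold a UMI of each gene at 1000 UMIs per cell in nonclassical monocytes, classical monocytes and T cells, with the 1V209-Cho-Lip library in red and the PBS library in dark blue. Thin lines are 95% intervals of nonclassical monocytes. H2-Aa is at 38.5% and 25.8% and Bcl2 at 4.28% and 12.7% in nonclassical monocytes, whereas Il31ra and Scand1 are higher in all 3 treated classes.

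Tlr7 itself was near 1, and its pathway was mixed. Tlr7 stood at 80.4 and 85.3 CPM (45 and 79 UMIs), for a ratio of 0.943 (0.639 to 1.38), or 1.29 with equal weight per cell. Its relatives Tlr8, at 0.855 (0.536 to 1.34), and Tlr13, a sensor of bacterial ribosomal RNA, at 0.479 (0.323 to 0.695), stood on the same side of 1, and Tlr13 was 0.68 with equal weight per cell. Unc93b1, which carries these receptors to endosomes, stood at 0.861 (0.691 to 1.07), and Slc15a4, an endosomal transporter needed for TLR7 signalling, at 1.78 (1.01 to 3.17) on 28 and 26 UMIs, with 1.98 in classical monocytes and 2.02 in B cells. Of 25 measured pathway genes 2 were at least 1.5-fold higher and 5 lower, with a median of -0.10, which was 0.03 with equal weight per cell and 0.17 without the deep members.

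Among inflammatory mediators, Il1b, the gene of interleukin-1 beta, stood at 2657 and 2052 CPM, for a ratio of 1.295 (1.21 to 1.39), or 1.56 with equal weight per cell. At 1000 UMIs it was in 81.9% (71.8 to 89.6) and 72.6% (66.2 to 78.4) of members, and in 27.2% and 10.2% of B cells. Ptgs2, which encodes the prostaglandin synthase COX-2, stood at 238 and 47.5 CPM (133 and 44 UMIs), for a ratio of 5.004 (3.53 to 7.21), and 3.20 without the deep members. In the treated library 1 member held 53.4% of the Ptgs2 UMIs, yet 25.9% of treated and 7.69% of control members had one. At 1000 UMIs those shares were 10.3% (4.65 to 19.1) and 3.09% (1.23 to 6.35), with 2.71% and 1.60% in T cells and 15.3% and 13.5% in classical monocytes. Tnf stood lower at 25.02 and 57.2 CPM (14 and 53 UMIs), for a ratio of 0.437 (0.224 to 0.800), and the neutrophil chemokine Cxcl2 stood level at 543 and 545 CPM. Of 38 NF-kB targets and cytokines 8 were at least 1.5-fold higher and 5 lower, with a median of 0.08.

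Tgfb1, the gene of the cytokine TGF-beta 1, stood at 340 and 181 CPM, for a ratio of 1.87 (1.51 to 2.32), or 2.11 with equal weight per cell. At 1000 UMIs it was in 31.4% (21.5 to 42.7) and 15.9% (11.3 to 21.4) of members, in 28.0% and 14.2% of classical monocytes and in 7.45% and 3.91% of T cells. The higher value was thus found in each of these classes. The complement receptor C5ar1 stood at 184 and 123 CPM, for a ratio of 1.496 (1.13 to 1.97), with 3.38 in classical monocytes. The growth factor gene Hgf stood lower, at 17.9 and 60.4 CPM (10 and 56 UMIs), for a ratio of 0.296 (0.134 to 0.585), with 1.39 in classical monocytes.

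A further set of genes was higher in the treated library in all 8 classes. Scand1, a SCAN-domain factor (chromosome 2, 156311847 to 156312704, minus strand), had 169 UMIs in 60 treated members and 3 UMIs in 3 control members, a ratio of 93.3 (31.4 to 457), and its ratio was 69.1 in classical monocytes, 47.0 in T cells and 32.2 in neutrophils. Il31ra, a chain of the interleukin-31 receptor (chromosome 13, 112519898 to 112594360, minus strand), stood at 1984 and 283 CPM, for a ratio of 7.01 (6.13 to 8.06), and at 1000 UMIs it was in 67.7% and 18.7% of members and in 62.2% and 14.9% of T cells. Cebpd, an acute-phase transcription factor (chromosome 16, 15887286 to 15891031, plus strand), had 75 and 7 UMIs, a ratio of 17.7 (8.20 to 45.6), with 22.95 in classical monocytes and 14.9 in T cells. All 3 genes were thus also far higher in T cells. Wfdc17, a secreted antiprotease, stood at 529 and 114 CPM, for a ratio of 4.62 (3.69 to 5.83), with 10.3 in T cells and 25.6 in neutrophils. The phosphatase gene Dusp1 stood at 1095 and 513 CPM, for a ratio of 2.14 (1.89 to 2.41), below its 5.66 in classical monocytes and 4.30 in T cells. Of 24 acute-phase and C/EBP genes 14 were at least 1.5-fold higher and 1 lower, with a median of 0.61 and 17 above 1 in all 4 weightings. The part of a library-wide difference in these values was not tested.

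**Figure D4:**
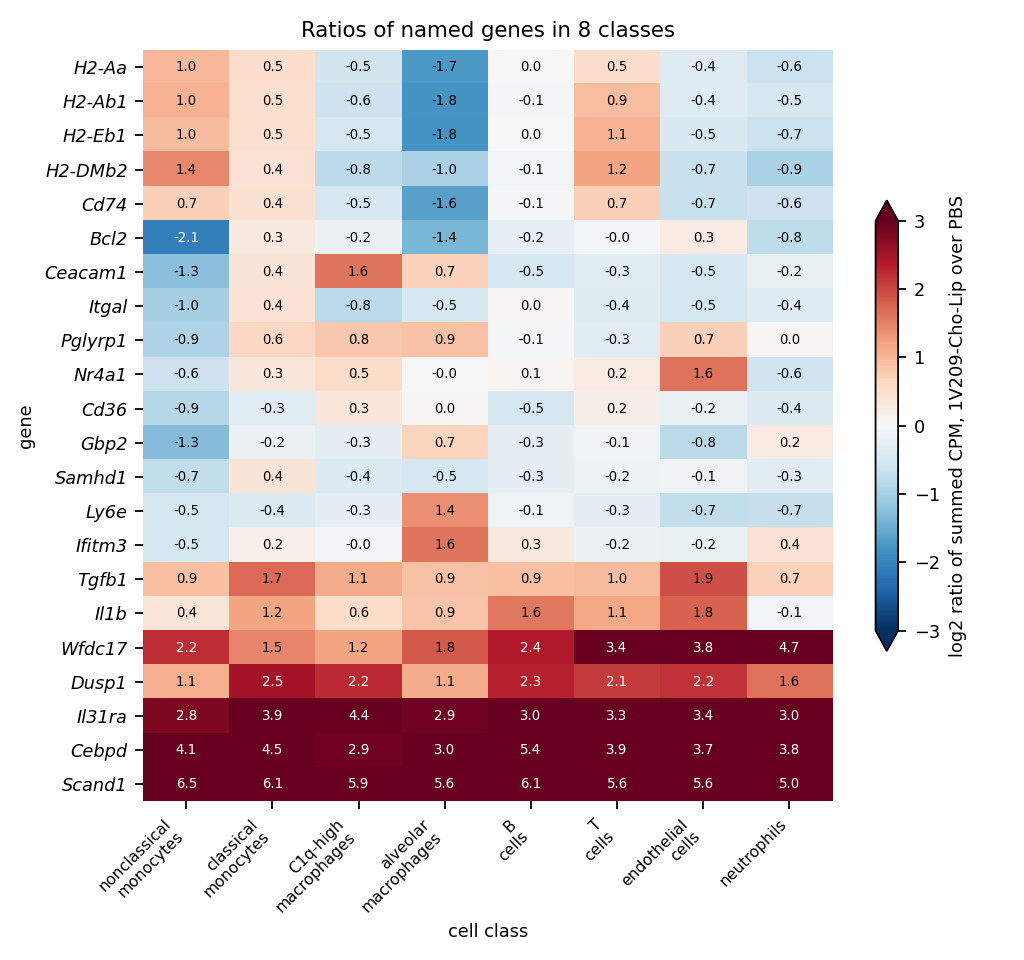
Log2 ratio of summed CPM, 1V209-Cho-Lip over PBS, for named genes (rows) in 8 cell classes (columns), with red for higher and blue for lower and the colour scale ending at 3 each way. H2 genes are higher in nonclassical monocytes, classical monocytes and T cells and lower in macrophages, endothelial cells and neutrophils, and the bottom rows from Wfdc17 to Scand1 are red in every class.

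Several of the 12 highest and 12 lowest ratios rested on a few cells. Def8, the leading gene of another cluster of cells in these libraries, had 2857 UMIs in the treated members, of which 1 member held 93.7%, and 677 in the control members, and its log2 ratio went from 2.80 to -1.86 without the deep members. The monocyte chemokine Ccl2 had 183 UMIs in 5 treated and 28 UMIs in 8 control members, Ccl7 131 UMIs in 2 and 15 UMIs in 5, and the neutrophil chemokine Cxcl1 225 UMIs in 3 and 27 UMIs in 9. Without the deep members all 3 chemokines were lower in the treated library. Dcn, a matrix proteoglycan of fibroblasts, had 70 UMIs, 95.7% of them in 1 treated member, and the stress cytokine Gdf15 59 UMIs, 91.5% in 1 treated member. The metallothioneins Mt1 and Mt2 had ratios of 5.87 (5.01 to 6.89) and 12.6 (6.48 to 27.3), which were 1.08 and 4.30 without the deep members. C1qbp, a mitochondrial matrix protein, had 57 and 7 UMIs, 61.4% of the treated ones in 1 member, and was also 6.98 times higher in classical monocytes.

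On the low side, the T and NK cell chemokine Ccl5 had 0 UMIs in the treated members, which allows up to 5.36 CPM, against 249 UMIs in 13 control members, at least 50.1-fold lower when the treated library is set at the floor of 3 UMIs. The granule protease Gzma had 2 UMIs against 165, a ratio of 0.0201 (0.00241 to 0.0736). The surfactant genes Sftpc, Sftpa1 and Sftpb and the lung epithelial chemokine Cxcl15 had ratios of 0.176, 0.272, 0.252 and 0.192, and the last 3 of these genes turned to log2 values of 0.65, 0.62 and 0.83 without the members with other-type RNA. For Mmp19, a matrix metalloproteinase, 1 control member held 78.2% of UMIs, and its log2 ratio was 2.59 without the members that held alveolar macrophage genes. Bcl2, Ceacam1 and Hpgd, also among the 12 lowest, were spread over cells. Hpgd, which degrades prostaglandins, stood at 46.5 and 162 CPM, for a ratio of 0.287 (0.182 to 0.437) over 17 and 67 members, and it is also a marker of lung endothelium. Its log2 ratio turned to 1.10 when barcodes were thinned to 1000 UMIs before the rule.

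Lipid and scavenging genes were mixed, with list counts near the shares over all genes. Cd36 stood at 279 and 504 CPM, for a ratio of 0.553 (0.458 to 0.664), or 0.61 with equal weight per cell, and Pparg, the fatty-acid sensing nuclear receptor that drives it, at 138 and 279 CPM, for a ratio of 0.494 (0.378 to 0.640), or 0.58. Ncf1, the p47phox subunit of the NADPH oxidase, stood at 92.9 and 191 CPM, for a ratio of 0.486 (0.350 to 0.666), or 0.52 with equal weight per cell. Msr1, the class A scavenger receptor, stood higher at 71.5 and 42.1 CPM (40 and 39 UMIs), for a ratio of 1.70 (1.06 to 2.71). It was found in 35.8% and 13.1% of members, without correction for the greater depth of the treated members. Clec4a2, an inhibitory C-type lectin, stood at 104 and 49.7 CPM, for a ratio of 2.09 (1.39 to 3.14), and 2.56 with equal weight per cell. The Fc receptor Fcgr4, which these cells carry at high levels, stood at 0.860 (0.700 to 1.05), and at 1.27 with equal weight per cell. Of 32 phagocytosis and scavenging genes 4 were higher and 4 lower at 1.5-fold, with a median of 0.13, and of 17 lipid genes 4 and 3, with a median of 0.01.

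Markers of classical monocytes were more often above 1 than below it, with 1.5-fold counts near the shares over all genes. Chil3, a chitinase-like secreted protein, stood at 1437 and 289 CPM (804 and 268 UMIs), for a ratio of 4.97 (4.32 to 5.72), but 2.06 without the deep members, and 5.93 in classical monocytes. Hp, the gene of haptoglobin, stood at 236 and 167 CPM, for a ratio of 1.41 (1.11 to 1.79), or 1.84 with equal weight per cell. It was found in 58.0% and 34.8% of members, without correction for the greater depth of the treated members. Ccr2 stood at 1.02, and 1.29 with equal weight per cell. Plac8, another of these markers, stood at 1467 and 1709 CPM, for a ratio of 0.859 (0.788 to 0.935), or 1.02 with equal weight per cell, and Ly6c1, a Ly6C family member, at 0.65 (0.334 to 1.22). Of 13 markers 3 were at least 1.5-fold higher and 1 lower, and 2 and 0 without the members that held alveolar macrophage genes. Their median was 0.30, 0.16 without the deep members and 0.13 without those with alveolar macrophage genes. In all 4 weightings 7 of them (53.8%) were above 1 and 1 (7.69%) below, against 30.4% and 34.1% of all measured genes.

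A last set was picked after the values were seen, from genes past 2-fold in all 4 weightings with at least 50 UMIs and 50 CPM. They had to be measured in 3 or more other classes and 2-fold the same way in at most 1. Genes barred from the 12 highest and 12 lowest were left out. Of the 236 higher and 137 lower genes, 17 and 17 met these limits. The set still held Gdf15 and Mt2, with 91.5% and 60.5% of treated UMIs in 1 member, and the surfactant gene Sftpd. Besides H2-Ab1, H2-DMb2, Ptgs2 and Clec4a2, the higher genes included Acp5, the tartrate-resistant acid phosphatase, at 98.3 and 43.2 CPM, for a ratio of 2.28 (1.49 to 3.51), found in 29.6% and 11.3% of members. Lifr, the leukaemia inhibitory factor receptor, stood at 55.4 and 24.8 CPM, for a ratio of 2.23 (1.26 to 4.01). In classical monocytes the ratio was 2.28 for Lifr, 2.06 for Clec4a2 and 1.90 for Acp5. It was 1.40 there for H2-Ab1, 1.35 for H2-DMb2 and 0.776 for Ptgs2. For Lifr and Clec4a2 the 1 other class past 2-fold was thus classical monocytes. Besides Bcl2, Gbp2, Hgf and Hpgd, the lower genes included the copper pump Atp7a, at 57.2 and 138 CPM, for a ratio of 0.414 (0.272 to 0.614), with 1.34 in classical monocytes, and the mitochondrial fusion gene Opa1, at 21.4 and 52.9 CPM, for a ratio of 0.405 (0.196 to 0.773). They were selected for these differences, so the values are a description.

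**Figure D5:**
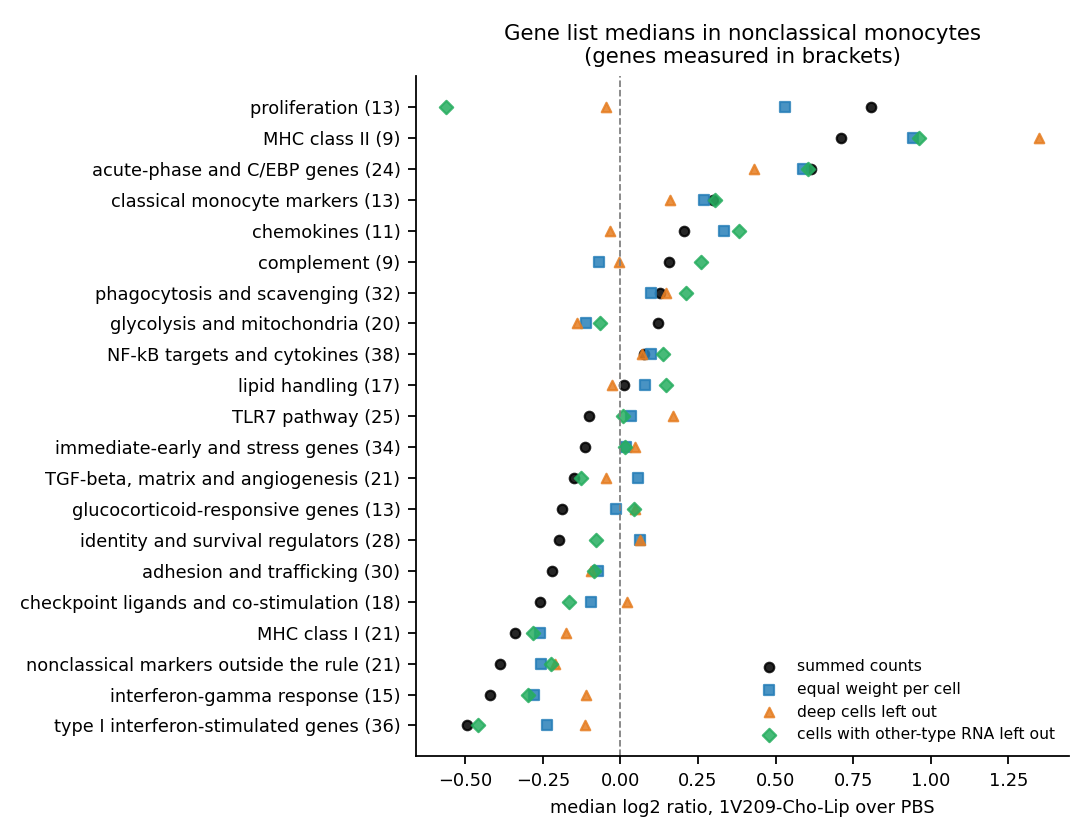
Median log2 ratio, 1V209-Cho-Lip over PBS, of each gene list in nonclassical monocytes (genes measured in brackets) under 4 weightings of the cells. MHC class II lies between 0.71 and 1.35, the type I interferon list between -0.50 and -0.11, and the proliferation list changes sign.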

How the data were processed

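The deposited matrices hold counts, UMIs per gene and barcode, made by the authors with Cell Ranger 9.0.1, per the file headers, on mm10, per the submitters' processing notes. The annotation release is not given in the sources used here. The members and gene lists were chosen with earlier results of these data known. The tools were Python 3.11.15, pandas 2.3.3, Matplotlib 3.10.9, SciPy 1.17.1, Scanpy 1.11.5 and NumPy 2.4.6. Counts of the members were summed per library and divided by their total UMIs (CPM). Ratios carry exact conditional binomial 95% intervals and shares of counted cells exact Clopper-Pearson intervals, and both cover counting error only. Log2 ratios add 0.5 counts. Detection shares are the expected shares of cells with a UMI at 1000 UMIs per cell. Their intervals use the Clopper-Pearson formula on an expected number of cells, which is not a whole count, so they are approximate. With 1 library per group there was no test. Tested on simulated data for nonclassical monocytes, 95.9% of the intervals over 7447 genes, 200 of them changed, held the true ratio. The simulated counts were drawn per library with counting error alone, as the intervals assume. Spread between cells was left out, so this checks the calculation and not how well the intervals cover these data. The named genes are the 12 highest and 12 lowest by the interval bound nearest 1, taken from genes that reached 50 UMIs over both libraries and 100 CPM in one of them, without genes of the rule, mitochondrial, ribosomal, haemoglobin, receptor-segment and predicted genes. Of each list, the 4 members with the most UMIs and the highest and lowest ratio could be named, and other genes were named after their values were seen. Doublets were called by Scrublet and kept. Other limits, filters and scalings were tried, and the weightings without deep, other-type or alveolar-gene members were added after seeing the data. Promoters and gene coordinates come from RefSeq and from GENCODE vM21, in which 52081 of 55357 gene IDs of the files were found. Some genes that met these rules are not reported here.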

Additional observations from a re-analysis of the deposited data

How the results depend on the processing

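The share of nonclassical monocytes was below that of the control library under each setting tried, at a ratio of 0.389 and at 0.541 among barcodes with S100a8 and S100a9 under 3% of UMIs. The 532 genes at least 2-fold higher became 344 with 4 markers required, 286 without deep members, 316 without members with other-type RNA, 185 with at least 50 UMIs per gene, 879 with at least 10 and 33 when barcodes were thinned to 1000 UMIs before the rule, which left 28 and 79 members in a single draw. The 341 lower genes became 101, 655 and 91 under the last 3 settings. Without deep members the list medians were 0.17 for TLR7 genes, -0.11 for type I interferon genes, 0.062 for identity and survival, 1.35 for MHC class II, 0.020 for checkpoint genes, -0.045 for proliferation and -0.14 for glycolysis. After thinning they were -0.26 for type I interferon genes, -0.42 for NF-kB targets, 0.26 for immediate-early genes, -0.76 for checkpoint genes, -0.41 for chemokines and -0.30 for lipid genes. With equal weight per cell they were -0.24 for type I interferon genes, 0.062 for identity and survival and -0.11 for glycolysis. The type I interferon median was also -0.66 without doublets, 0.14 with 2 markers, -0.30 with 4, -0.044 with Ly6c2 up to 3 and -0.28 with S100 genes up to 6%. The MHC class II median was 0.32 after thinning and 0.42 with 2 markers. Checkpoint medians were 0.023, 0.045 and -0.016 with 2 markers, 4 markers and Ly6c2 up to 3. Proliferation medians were -0.41, -0.26 and 0.13 under those settings and -0.56 without other-type members. Glycolysis medians were -0.13 and -0.11 with 2 and 4 markers and -0.066 without other-type members. Of single genes, on the log2 scale, the sign turned after thinning for Cxcl1 (-0.089), Ccl2 (-1.67), Def8 (-0.62), Mt1 (-1.67), Mmp19 (1.496) and Hpgd (1.10). It turned without deep members for Cxcl1 (-0.77), Ccl7 (-1.22), Ccl2 (-1.56), Def8 (-1.86) and Mmp19 (1.76). It turned without other-type members for Cxcl15 (0.83), Sftpa1 (0.65) and Sftpb (0.62), for Sftpb without doublets (0.18) for Mmp19 with 4 markers (3.14) and for Mmp19 without the members that held at least 2 alveolar macrophage genes (2.59). The cause was not tested. No paired analysis was possible because each group has 1 library, and for the same reason no replicate could be left out. Depth limits genes under 20 UMIs, which were not measured.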

Other observations

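A growth-factor receptor chain stood higher in the treated nonclassical monocytes, and the ligands Cd80 and Pdcd1lg2 had intervals that reached 1. Csf2rb, the common beta chain of the GM-CSF receptor, had 147 treated and 172 control UMIs, a ratio of 1.41 (1.13 to 1.77). Cd80, a co-stimulatory ligand, had 77 and 98 UMIs, a ratio of 1.30 (0.952 to 1.77), or 1.57 with equal weight per cell, whereas Pdcd1lg2, an inhibitory ligand, had 8 and 29 UMIs, a ratio of 0.457 (0.180 to 1.02). Of 18 measured checkpoint and co-stimulation genes 0 were at least 1.5-fold higher and 3 lower, with a median of -0.26 on the log2 scale. Of the 3 lower genes 1 had an interval wholly below 1, and the list's lowest log2 ratio was -1.59. Of 13 proliferation genes 7 were higher and 0 lower, with a median of 0.81, which was -0.04 without the deep members and -0.56 without the members with other-type RNA. Of 20 glycolysis and mitochondrial genes 3 were higher and 2 lower, with a median of 0.12. Of 34 immediate-early and stress genes 6 were higher and 5 lower, with a median of -0.11. Cd83, a maturation marker of antigen-presenting cells, had 183 and 613 UMIs, a ratio of 0.49.

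The 13 glucocorticoid-responsive genes had a median of -0.19, with 3 higher and 0 lower. Vegfa, a vessel growth factor, had 52 and 17 UMIs, a ratio of 5.06, with 67.3% of the treated UMIs in 1 member.

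These values come from 1 library per group with 81 and 221 members, so spread between mice is unknown and treatment cannot be told apart from library. Few members carried many of the UMIs, the treated members were deeper, and a marker rule finds deep cells more readily. Transcripts of epithelial, neutrophil, alveolar macrophage and red cells were present at different levels in the members of each library, and their part was not tested.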
